A study of Mus musculus with 18 samples.

Results

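Inguinal white fat (iWAT) adipocytes were compared with whole brown fat (BAT) across every expressed gene in male mice on a high-fat diet (HFD). The comparison took 12 of the 18 RNA-seq samples of the series, 6 of iWAT adipocytes and 6 of BAT, and the other 6 were epididymal (eWAT) adipocytes. Per the labels, all mice were wild type C57BL/6 males, and the study's methods gave 12 weeks of HFD and an age of 16 weeks. A treatment field of the labels named regular chow instead, whereas titles and protocols gave HFD, and the substrain was written in different ways. The 2 groups also differed in how the RNA was obtained. iWAT was digested with collagenase and the floating layer of mature adipocytes was collected, whereas BAT was frozen as whole tissue, although its labels gave both "BAT tissue" and "BAT adipocytes". The libraries were also sequenced on separate flow cell lanes, 1 and 2 for iWAT adipocytes and 3 and 4 for BAT. Depot, isolation and lane therefore cannot be told apart in any difference given here. Samples are named by the mouse number in their titles: 1, 2, 5 and 16 appear in both groups, 3 and 4 among iWAT adipocytes only and 17 and 18 in BAT only.

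White adipocytes store triacylglycerol in a single large droplet and secrete hormones such as leptin and adiponectin. Brown adipocytes hold many small droplets and many mitochondria, and the uncoupling protein Ucp1 in their inner membrane lets protons return without making ATP, so that respiration gives heat. Noradrenaline, acting through beta-adrenergic receptors and cyclic AMP, switches that process on, and a fatty diet is known to bring macrophages into white fat.

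The reads on gene rows numbered 26768529 to 30166441 in the iWAT adipocyte libraries and 27402247 to 42518483 in those of BAT. The 10 rows with the most reads took 17.9 ± 2.33% of an iWAT adipocyte library and 47.1 ± 3.99% of a BAT library (mean ± SD, n = 6 each). Most of those rows belonged to the mitochondrial genome or to its copy on chromosome 1, to which reads were also assigned. Scaling by the trimmed mean of M-values (TMM) gave mean factors of 1.35 for iWAT adipocytes and 0.745 for BAT. Without TMM, the median log2 fold change over all genes was 0.87 instead of 0.01. With the rows of the mitochondrial genome and its copy left out, the unscaled median was 0.14. Levels are given as TMM-scaled RPKM, that is, reads divided by the length of the gene's row and by the TMM-scaled library size, in the usual RPKM units, and a positive log2 fold change is higher in iWAT adipocytes.

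Most of the genome differed between the groups. Of 19745 genes tested with edgeR's quasi-likelihood test, 14864 (75.3%) passed a Benjamini-Hochberg adjusted p of 0.05, with 7528 (38.1%) higher in iWAT adipocytes and 7336 (37.2%) higher in BAT. Every count of genes below has to be read against these shares. For 11159 genes (56.5%) the 6 samples of one group all lay beyond the 6 of the other. The differences were often small, since the median absolute log2 fold change was 0.69. At least 2-fold higher were 3585 of the called genes in iWAT adipocytes and 3778 in BAT. At least 32-fold higher were 180 and 160. Without TMM, 81.8% of the called genes were higher in iWAT adipocytes, compared with 50.6% with it, so the direction of changes smaller than that shift depends on the scaling. Without TMM and with the rows of the mitochondrial genome and its copy left out, the share was 57.2%. A dagger after a symbol marks a gene whose row overlaps the row of another symbol, as 64.7% of the rows tested did. The kit did not keep the strand, and reads in such an overlap cannot be assigned with certainty. Errors of log2 fold changes are standard errors (SE), and those of levels are SD over 6 samples. In these bulk samples fewer cells of a type and less RNA per cell cannot be told apart.

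**Figure D1:**
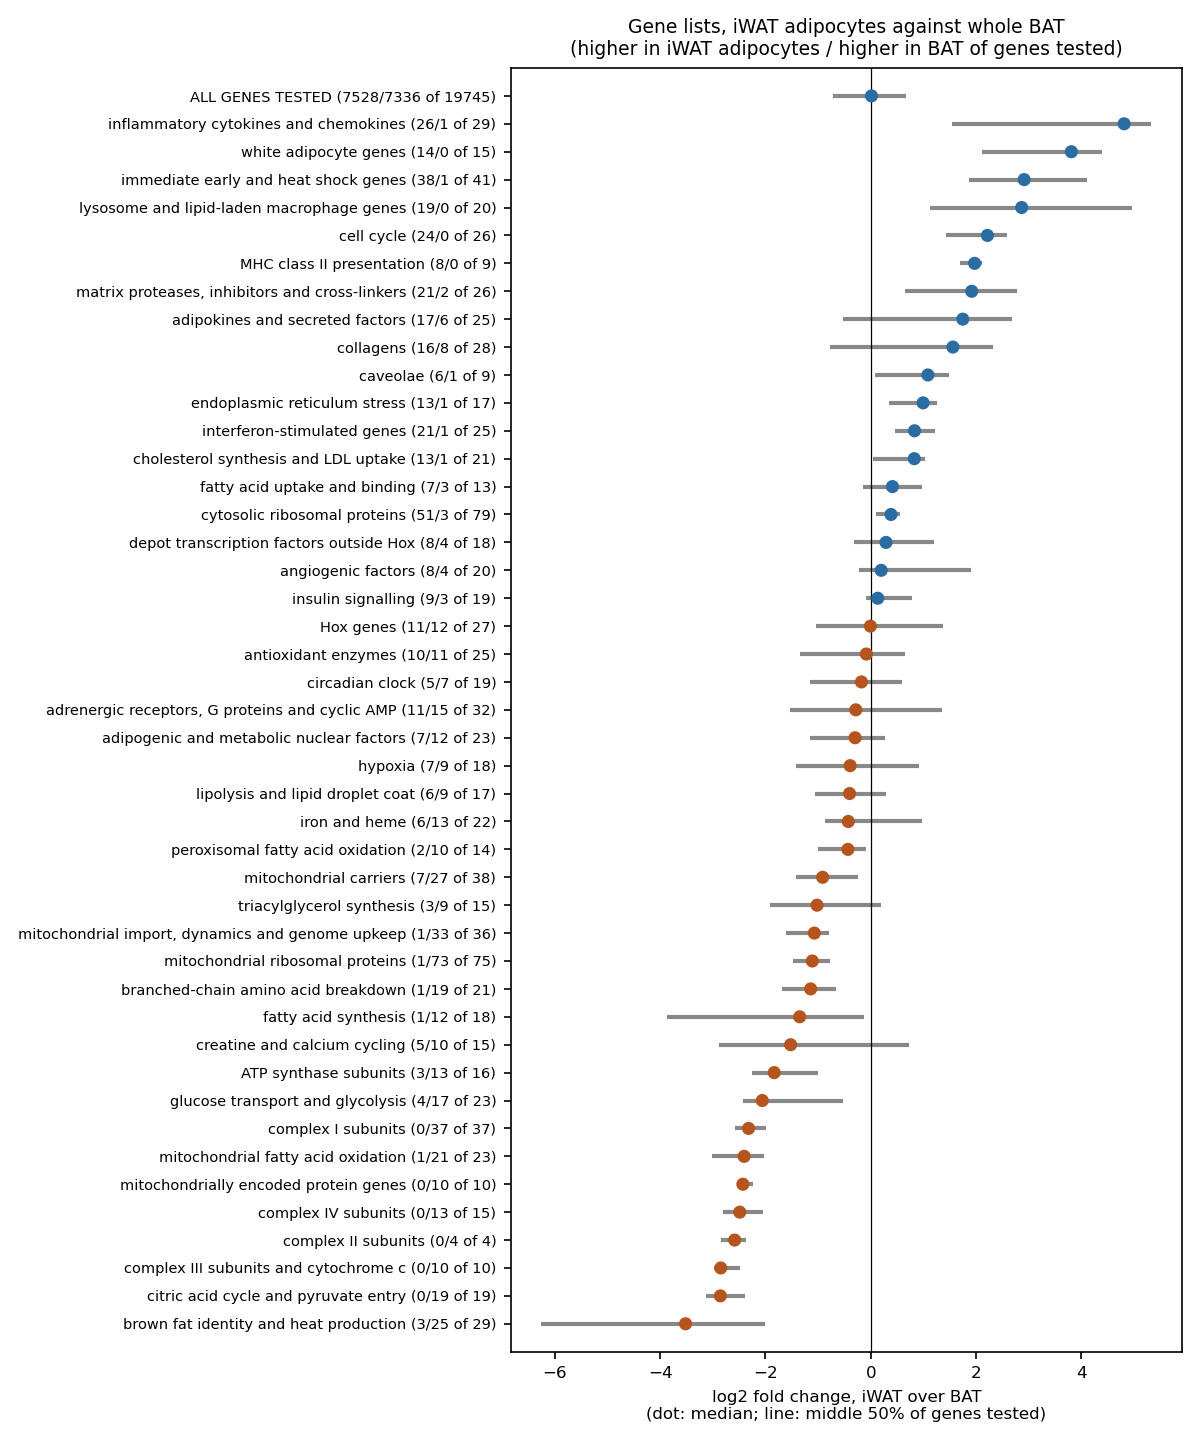
Median log2 fold change (dot, log2 scale) and middle 50% of genes (line) for each gene list and for all genes tested, with the number of genes higher in iWAT adipocytes and in BAT. Respiratory chain, citric acid cycle and brown fat lists lie at the BAT end, with medians near or below -2, and inflammatory, white adipocyte and immediate early lists at the iWAT end.

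The labelled tissues were first set against markers of the cell types that each could hold. The 9 general adipocyte markers summed to 8227 to 12793 TMM-scaled RPKM in iWAT adipocytes and 6845 to 8393 in BAT, so adipocyte RNA was abundant in both. The 8 brown adipocyte markers summed to 38.6 to 63.9 and 3754 to 5269, and all 8 were higher in BAT. Macrophage markers were higher in iWAT adipocytes for 13 of 14 genes, with sums of 522 to 989.7 against 61.3 to 98.7, although floating cells had been collected. Emr1† and Cd68, members of that list of 14, were at 18 ± 4.54 and 110.0 ± 25.5 in iWAT adipocytes and at 0.752 ± 0.193 and 3.70 ± 0.840 in BAT. Fibroblast and progenitor markers also summed higher in iWAT adipocytes, at 493 to 609 against 106 to 127, with 6 of 12 genes called higher there and 3 called higher in BAT. Endothelial markers overlapped, at 197 to 511 and 156 to 302. Red blood cell genes were higher in BAT for 5 of 5, at 1005 to 2397 against 145 to 646. Their log2 fold changes were nearly equal (quartiles -2.17 and -2.16), so the 5 cannot be taken as separate measurements. The row of Hbb-b1 also lay away from the gene's place in the GENCODE vM1 annotation. Schwann cell markers summed to 67.4 to 84.6 in BAT and 9.01 to 19.5 in iWAT adipocytes, with 3 of 6 higher in BAT and 2 in iWAT adipocytes.

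Skeletal muscle markers separated the BAT samples from each other. Their 17 genes summed to 15.5 in the BAT of mouse 2 and 44.2 in that of mouse 17, but to between 144 and 246 in the other 4 BAT samples. In iWAT adipocytes the sum was 10.6 to 26.8. In all, 16 of the 17 were called higher in BAT (median -3.63), and 8 were when the only BAT samples kept were those of mice 2 and 17 (median -1.48). Those samples were kept for their low muscle signal, and fewer BAT samples were left, so fewer calls in this list follow from the choice. The same restriction left 12911 genes called in all, 6552 of them higher in iWAT adipocytes.

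**Figure D2:**
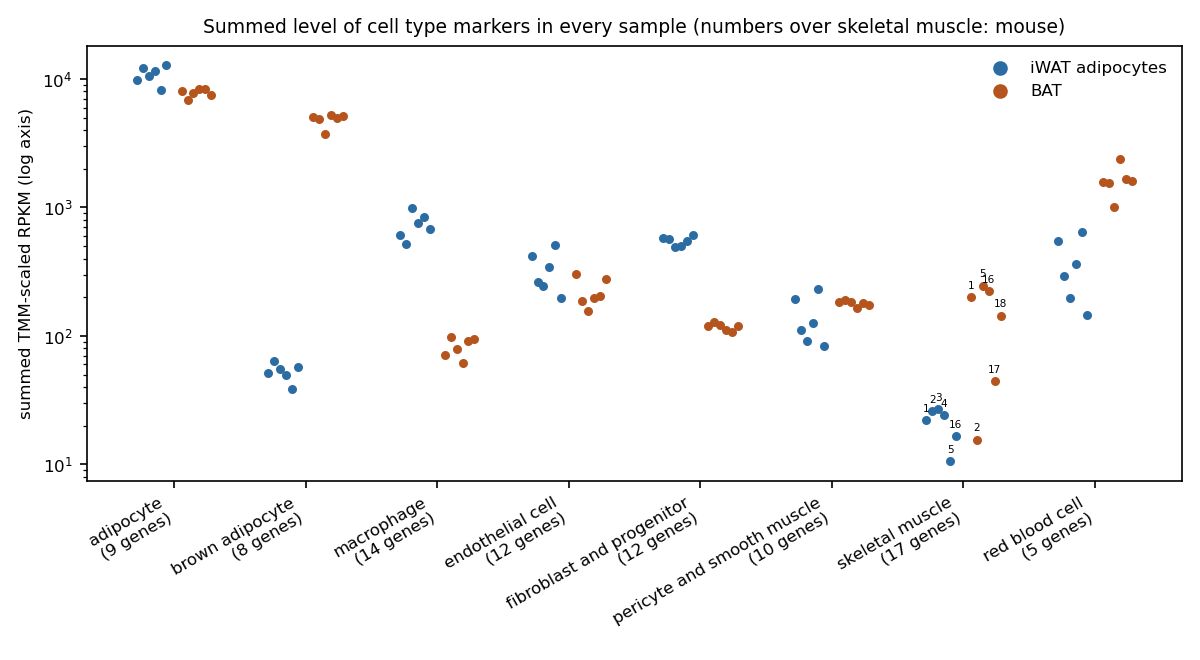
Summed TMM-scaled RPKM (log axis) of the marker genes of 8 cell types in each of the 12 samples. Brown adipocyte and macrophage markers separate the groups in opposite directions, and skeletal muscle markers are low in the BAT of mice 2 and 17 and high in the other 4 BAT samples.

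The genes of brown fat identity and heat production had the lowest median of any list of gene function. Of 29 genes, 25 were higher in BAT and 3 in iWAT adipocytes (median -3.52), and together they made up 2.05 ± 0.171% of all RPKM deposited for BAT against 0.0443 ± 0.00549% for iWAT adipocytes, with the mitochondrial rows left out of the total. Ucp1, the uncoupling protein (chromosome 8, 85814247 to 85822355 in mm9), lay between 1.22 and 2.42 (median 1.65) in iWAT adipocytes and between 1819 and 2547 (median 2239) in BAT. No sample of one group came near those of the other, a 1256-fold difference (log2 fold change -10.29 ± 0.22, adjusted p = 2.17e-14). The 300 bases around its start site are shown because this gene had the largest difference of the classic heat genes. They are from RefSeq on GRCm38.p6, chr8:83290098-83290397, + strand, from 250 bases before the start to 50 after it. Capitals mark TGACG, the core letters of a cyclic AMP response element, whose match begins 147 bases before the start.
Ucp1: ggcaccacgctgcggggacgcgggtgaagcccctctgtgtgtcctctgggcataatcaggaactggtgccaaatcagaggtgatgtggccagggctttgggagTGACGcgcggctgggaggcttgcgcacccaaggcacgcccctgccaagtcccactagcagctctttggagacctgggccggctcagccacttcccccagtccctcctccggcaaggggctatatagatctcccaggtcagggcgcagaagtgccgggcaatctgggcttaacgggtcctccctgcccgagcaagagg
The same 5 letters, on either strand, occurred in 20.8% of 32851 promoter windows of that length and in 20.8% of the 24 windows of the brown fat list.

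Other genes of this list also differed widely. Cidea†, a protein of the small lipid droplets of brown cells, lay between 4.08 and 6.37 (median 5.86) in iWAT adipocytes and between 506 and 678 (median 639) in BAT (log2 fold change -6.82 ± 0.14, adjusted p = 2.17e-14). Cox7a1 and Cox8b are the muscle and brown fat forms of cytochrome c oxidase subunits. Cox7a1 had levels of 2.77 ± 0.837 in iWAT adipocytes and 432 ± 78.7 in BAT (log2 fold change -7.29 ± 0.20, adjusted p = 2.26e-13). Cox8b had 21.9 ± 4.32 in iWAT adipocytes and 1403 ± 275 in BAT (log2 fold change -6.00 ± 0.19, adjusted p = 9.79e-13). Pank1, which makes the precursor of coenzyme A, differed by -6.66 ± 0.14 on the log2 scale (adjusted p = 2.17e-14). The fatty acid activating transporter Slc27a2 had at most 3 reads in every iWAT adipocyte sample and 14.7 ± 4.46 TMM-scaled RPKM in BAT, at least 615-fold higher in BAT when set against 3 reads per library. For all of these genes the 2 groups were fully separate, which the naming rule required of those among the 15 largest differences. Smaller differences were seen for the receptor Adrb3† (-3.23 ± 0.23), the nuclear receptor Esrrg† (-2.76 ± 0.16), the brown fat determination factor Ebf2† (-2.61 ± 0.15) and the secreted factor Nrg4† (-1.13 ± 0.14), all called higher in BAT. Without TMM, Nrg4 did not pass (-0.28, adjusted p = 0.059). The 3 members of this list that went the other way were Lhx8 (1.97 ± 0.17), a homeobox factor, Hspb7 (1.84 ± 0.38), a small heat shock protein of muscle, and Epsti1† (1.77 ± 0.19), an interferon-responsive gene. Fgf21 did not pass the test.

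Other genes among the 15 largest differences towards BAT were Lgr6, a receptor of R-spondins, with 0 to 4 reads in the iWAT adipocyte samples and 1597 to 7319 in those of BAT (log2 fold change -11.22 ± 0.41, adjusted p = 3.22e-12). Kng2†, a kininogen, differed by -9.60 ± 0.18 and Aspg, an asparaginase, by -9.34 ± 0.25. Acot11†, a thioesterase linked to brown fat, differed by -7.71 ± 0.24 and the carrier Slc25a48 by -6.90 ± 0.15. Fam151a†, Cpn2 and Tuba8 were in the same group (log2 fold changes -7.53, -7.21 and -6.37).

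**Figure D3:**
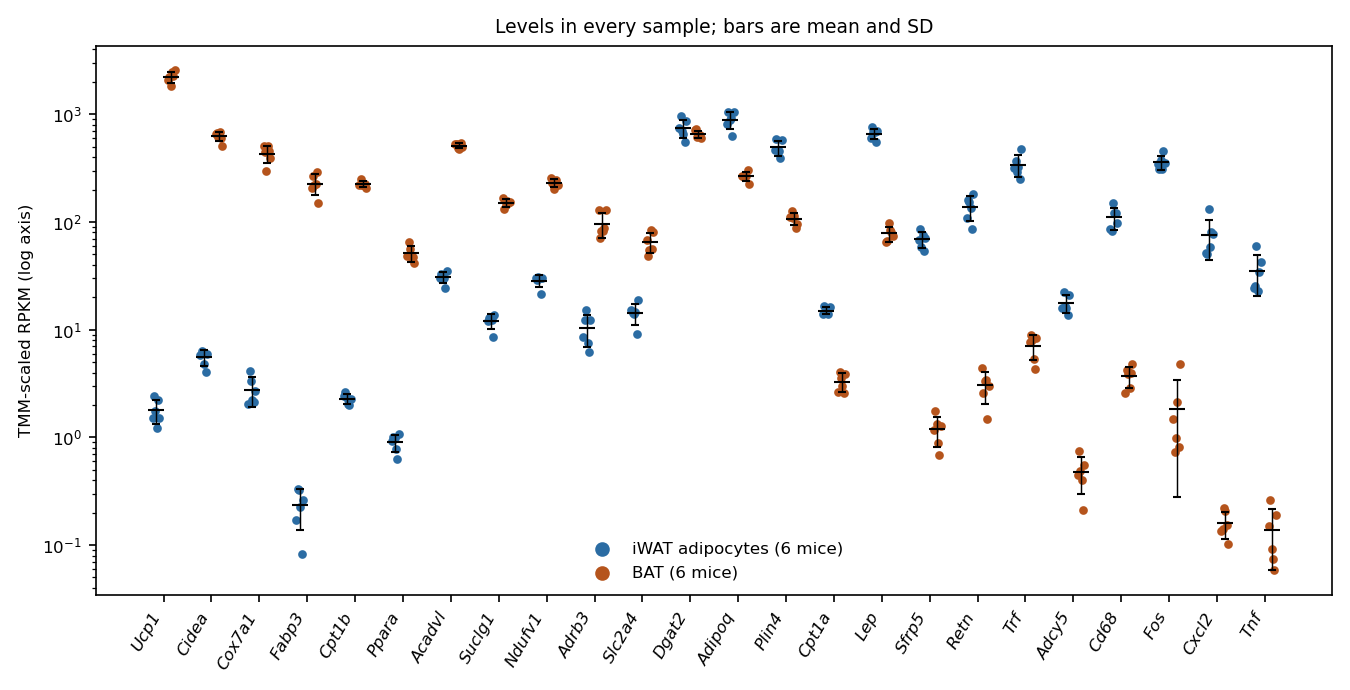
TMM-scaled RPKM (log axis) of 24 genes in every sample, with mean and SD. Ucp1 to Slc2a4 are higher in all 6 BAT samples, Dgat2 overlaps between the groups, and Adipoq to Tnf are higher in all 6 iWAT adipocyte samples.

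The machinery of respiration was higher in BAT almost without exception. All 37 tested subunits of complex I (median -2.32), the 4 of complex II (median -2.59) and the 10 of complex III and cytochrome c (median -2.85) were called higher in BAT. Of 15 complex IV subunits 13 were, and the tissue-specific Cox4i2 and Cox6a2† were the ones that did not pass. Cox6a2, the muscle form, was higher in iWAT adipocytes with the BAT of mice 2 and 17 only (log2 fold change 4.68, adjusted p = 8.78e-05). The catalytic-arm subunit Ndufv1 had levels of 28.5 ± 3.54 in iWAT adipocytes and 229 ± 20.2 in BAT (log2 fold change -3.01 ± 0.11, adjusted p = 2.44e-12). Sdhb, the iron-sulfur subunit of succinate dehydrogenase, had 10.3 ± 1.05 in iWAT adipocytes and 96.9 ± 5.46 in BAT (log2 fold change -3.24 ± 0.09, adjusted p = 2.97e-13). Cyc1, which passes electrons to cytochrome c, had 37.8 ± 4.85 in iWAT adipocytes and 299 ± 27.9 in BAT (log2 fold change -2.98 ± 0.11, adjusted p = 2.89e-12). These 3 subunits differed by 7.90-fold to 9.42-fold, whereas Cox7a1 and Cox8b differed by 157-fold and 64.0-fold. The 10 mitochondrially encoded protein genes were also all higher in BAT (median -2.43), for example COX1† with -1.84 ± 0.19 and COX3† with -2.45 ± 0.17. The row of COX3 lies on the chromosome 1 copy and within the row of COX2, and the rows of ND5 and ND6 nearly coincide. Reads of these genes were shared with the copy on chromosome 1, so the 10 cannot be taken as separate measurements.

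ATP synthase had members on both sides. Of 16 subunits 13 were higher in BAT (median -1.83), with Atp5b† at 173 ± 21.7 in iWAT adipocytes and 954 ± 52.7 in BAT (log2 fold change -2.46 ± 0.11, adjusted p = 3.18e-11) and Atp5a1† at -2.30 ± 0.10. Atpif1†, the inhibitor of the enzyme's reverse reaction, was higher in iWAT adipocytes (5.51 ± 0.668 against 2.15 ± 0.207, log2 fold change 1.35 ± 0.10, adjusted p = 4.30e-09). Atp5g3, a ring subunit, was also higher there (log2 fold change 0.34 ± 0.10, adjusted p = 0.005, and 0.092 with the mouse as a block). The third, Atp5g1, lay on a row away from the gene's place in the GENCODE vM1 annotation, and without such rows 12 of 14 subunits were higher in BAT and 2 in iWAT adipocytes.

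Supply routes of the respiratory chain showed the same direction. All 19 genes of the citric acid cycle and pyruvate entry were higher in BAT (median -2.86). Suclg1, a subunit of succinyl-CoA ligase, lay between 8.51 and 13.6 (median 12.5) in iWAT adipocytes and between 133 and 168 (median 151) in BAT, a 12.5-fold difference (log2 fold change -3.64 ± 0.12, adjusted p = 1.11e-12). Its partner subunit Sucla2† differed by -3.39 ± 0.12. Of 23 genes of mitochondrial fatty acid oxidation 21 were higher in BAT (median -2.41). Acaa2, the last enzyme of the beta-oxidation spiral, lay between 35.1 and 48.2 (median 45.8) in iWAT adipocytes and between 855 and 997 (median 929) in BAT (log2 fold change -4.41 ± 0.11, adjusted p = 9.29e-14). Acadvl†, which starts the oxidation of long chains, differed by -4.06 ± 0.11. The single gene of this list called higher in iWAT adipocytes was Cpt1a†, a form of the carnitine palmitoyltransferase that lets fatty acids into mitochondria, with 15 ± 1.11 in iWAT adipocytes and 3.28 ± 0.637 in BAT (log2 fold change 2.19 ± 0.12, adjusted p = 1.37e-10). Peroxisomal oxidation was mixed, with 10 of 14 genes higher in BAT and 2 in iWAT adipocytes (median -0.43, or 0.42 without TMM with 8 in the iWAT direction and 2 in that of BAT). Its fatty acid transporter Abcd3† was higher in BAT (-1.91 ± 0.14) and the related Abcd2 was higher in iWAT adipocytes (1.10 ± 0.14).

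Genes that build and maintain mitochondria were also mostly higher in BAT, with medians closer to 0. Of 75 genes listed as mitochondrial ribosomal proteins 73 were higher in BAT (median -1.11). Without TMM the median was -0.25, with 11 in the iWAT direction and 39 in that of BAT. Within that list Mrps36 differed the most (-3.25 ± 0.11), far beyond the lower quartile of -1.48, and Mrps6† was the exception (0.78 ± 0.11). Import, dynamics and genome upkeep had 33 of 36 genes higher in BAT (median -1.07, or -0.22 without TMM with 5 in the iWAT direction and 17 in that of BAT). Chchd10†, a protein of the intermembrane space, stood out there with 24.9 ± 5.21 against 511 ± 46.2 (log2 fold change -4.36 ± 0.15, adjusted p = 1.36e-12). Among 38 mitochondrial carriers 27 were higher in BAT and 7 in iWAT adipocytes (median -0.91, or -0.07 without TMM with 16 in the iWAT direction and 16 in that of BAT). With the mitochondrial rows also left out, the unscaled counts for carriers were 8 in the iWAT direction and 26 in that of BAT (median -0.79). For mitochondrial ribosomal proteins they were 1 and 71 (median -0.99). For import, dynamics and genome upkeep they were 1 and 32 (median -0.95). The coenzyme A carrier Slc25a42† was higher in BAT (-5.02 ± 0.21), whereas the dicarboxylate carrier Slc25a10† had 47.5 ± 8.97 in iWAT adipocytes and 2.63 ± 0.994 in BAT (log2 fold change 4.18 ± 0.24, adjusted p = 2.81e-10), and the aspartate-glutamate carrier Slc25a13† was likewise higher in iWAT adipocytes (4.14 ± 0.23). Cytosolic ribosomal proteins did not follow, since 51 of 79 were higher in iWAT adipocytes and 3 in BAT (median 0.39, or 1.24 without TMM with 78 in the iWAT direction and 1 in that of BAT). The rows of 21 of those 79 lay away from the annotated gene, and without them the counts were 34 and 3 of 58 (median 0.34).

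Within families, the balance between close relatives shifted. The log2 ratio of TMM-scaled RPKM of a gene to its paralog was taken within each sample for 27 pairs, which does not depend on library scaling, and tested with a two-sided exact permutation test over the 6 and 6 samples (smallest possible p 0.00216) with adjustment over the 27. In 25 pairs the ratio differed, with the first-named gene relatively higher in BAT in 21 and in iWAT adipocytes in 4. Ucp1 over Ucp2† was -4.02 ± 0.49 in iWAT adipocytes and 8.88 ± 0.17 in BAT, a difference of -12.91 (exact permutation, adjusted p = 0.00292, as for the next pairs). Fabp3† over Fabp4†, binding proteins for fatty acids of muscle and of fat, was -15.13 ± 0.53 in iWAT adipocytes and -4.78 ± 0.36 in BAT. Cpt1b† over Cpt1a was -2.72 ± 0.12 in iWAT adipocytes and 6.11 ± 0.28 in BAT, so that the muscle form prevailed in BAT and the liver form in iWAT adipocytes. Cidea over Cidec differed by -8.21, Plin5 over Plin4† by -6.53, Cox7a1 over Cox7a2 by -5.26 and Cox8b over Cox8a† by -4.34. The glucose transporters Slc2a4† over Slc2a1† (-3.87) and lactate dehydrogenases Ldhb† over Ldha (-3.14) shifted the same way. The 4 ratios higher in iWAT adipocytes were Cox6a2 over Cox6a1 (3.74), Gnai1† over Gnai2† (1.40), Scd2† over Scd1 (1.21) and Ppargc1a† over Ppargc1b† (0.97). The row of Cox6a2 overlaps the integrin gene Itgad†, which was itself among the genes most enriched in iWAT adipocytes. Esrrg over Esrra† (difference -0.34, p = 0.11) and Adrb3 over Adrb1 (0.38, p = 0.13) did not pass the exact permutation test.

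**Figure D4:**
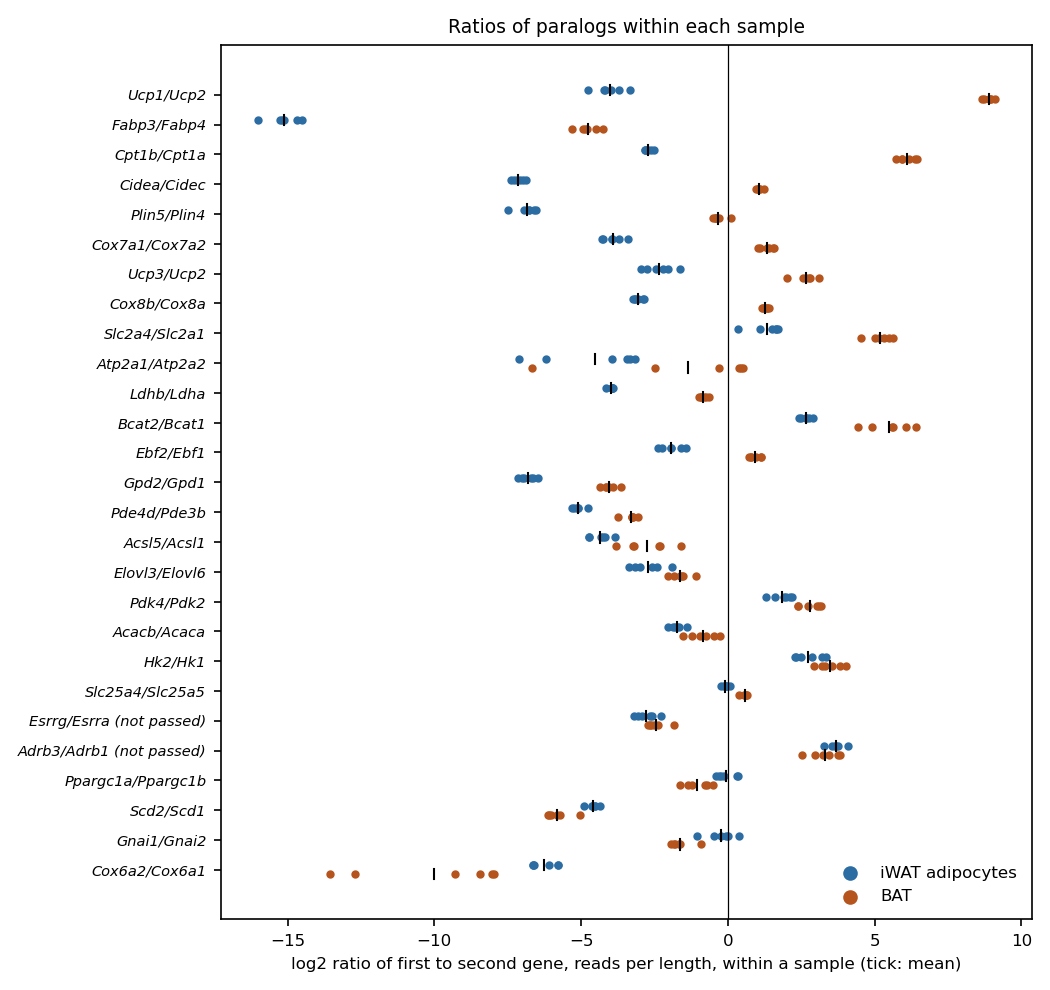
Log2 ratio of the first to the second gene of 27 paralog pairs in each of the 12 samples, with the mean as a tick. Ucp1/Ucp2, Fabp3/Fabp4 and Cpt1b/Cpt1a show the widest gaps between the groups, while Esrrg/Esrra and Adrb3/Adrb1 overlap.

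Enzymes of glucose use were mostly higher in BAT. Of 23 genes of glucose transport and glycolysis 17 were higher in BAT and 4 in iWAT adipocytes (median -2.06). The insulin-responsive transporter Slc2a4 lay between 9.07 and 18.9 (median 14.4) in iWAT adipocytes and between 48.7 and 83.6 (median 62.3) in BAT (log2 fold change -2.19 ± 0.17, adjusted p = 1.08e-08). Pfkl†, a phosphofructokinase, differed by -3.35 ± 0.12 and Hk2†, the hexokinase of insulin-responsive tissues, by -1.92 ± 0.18. In the other direction stood the transporter Slc2a1 (1.65 ± 0.16) and Hk3† (4.82 ± 0.20), a hexokinase of myeloid cells. Macrophage markers were also higher in iWAT adipocytes, and their part in the value of Hk3 was not tested. Branched-chain amino acid breakdown had 19 of 21 genes higher in BAT (median -1.14, or -0.29 without TMM with 4 in the iWAT direction and 11 in that of BAT), with Bckdha† at -2.32 ± 0.12. With the mitochondrial rows also left out, the unscaled counts were 2 and 19 (median -1.02).

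Lipid synthesis genes were more often higher in BAT with TMM, and more evenly divided without it. That evening out was smaller when the mitochondrial rows were also left out. The unscaled counts in the iWAT and BAT directions were then 3 and 12 for fatty acid synthesis (median -1.22). For triacylglycerol synthesis they were 4 and 9 (median -0.90). In fatty acid synthesis 12 of 18 genes were higher in BAT and 1 in iWAT adipocytes (median -1.35, or -0.47 without TMM with 6 in the iWAT direction and 9 in that of BAT). Elovl6†, which lengthens palmitate, had 2.53 ± 0.345 in iWAT adipocytes and 92.9 ± 33.8 in BAT (log2 fold change -5.20 ± 0.23, adjusted p = 1.75e-11). Acacb†, which makes the malonyl-CoA that controls oxidation, differed by -4.73 ± 0.17. Thrsp, a lipogenic gene driven by thyroid hormone, had 37.7 ± 9.45 in iWAT adipocytes and 659 ± 232 in BAT (log2 fold change -4.13 ± 0.27, adjusted p = 1.67e-09). Fads1, a desaturase, was the member higher in iWAT adipocytes (1.18 ± 0.10). For triacylglycerol synthesis 9 of 15 genes were higher in BAT and 3 in iWAT adipocytes (median -1.02, or -0.18 without TMM with 6 in the iWAT direction and 7 in that of BAT). Gyk†, which recycles glycerol, and Gpd1†, which makes glycerol phosphate from sugar, were higher in BAT (-3.52 ± 0.24 and -2.92 ± 0.16), and Mogat2† was higher in iWAT adipocytes (2.51 ± 0.24). Dgat2†, which adds the last acyl chain, was among the 5 most abundant genes that did not pass, lying between 554 and 955 (median 724) in iWAT adipocytes and between 607 and 722 (median 636) in BAT (log2 fold change 0.19 ± 0.13, adjusted p = 0.19).

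Lipid droplet coats and lipid uptake divided by family member. In lipolysis and droplet coats 9 of 17 genes were higher in BAT and 6 in iWAT adipocytes (median -0.40, or 0.45 without TMM with 11 in the iWAT direction and 3 in that of BAT). Plin4, a perilipin of white fat, lay between 393 and 591 (median 467) in iWAT adipocytes and between 87.6 and 126 (median 110.2) in BAT (log2 fold change 2.19 ± 0.13, adjusted p = 4.20e-10). Plin5, the perilipin that ties droplets to mitochondria, had 4.31 ± 1.13 in iWAT adipocytes and 85.7 ± 7.75 in BAT (log2 fold change -4.32 ± 0.15, adjusted p = 2.30e-12). Cidec, which fuses droplets, was higher in iWAT adipocytes (1.40 ± 0.13). Fatty acid uptake had 7 of 13 genes higher in iWAT adipocytes and 3 in BAT (median 0.41). Lpl†, the lipase that frees fatty acids from blood lipoproteins, was one of the 7 (668 ± 118 against 226 ± 18.5, log2 fold change 1.56 ± 0.13, adjusted p = 3.14e-08). Fabp3 had 0.235 ± 0.0964 in iWAT adipocytes and 227 ± 49.9 in BAT (log2 fold change -9.91 ± 0.24, adjusted p = 9.29e-14), whereas Fabp4, among the most abundant nuclear genes in both, had 8279.5 ± 1259.7 in iWAT adipocytes and 6114 ± 551 in BAT (log2 fold change 0.44 ± 0.13, adjusted p = 0.0054, and 0.14 with the mouse as a block). Caveolae, the membrane pits that white adipocytes hold in great number, had 6 of 9 genes higher in iWAT adipocytes and 1 in BAT (median 1.09), led by Prkcdbp (4.04 ± 0.12) and Ptrf (1.69 ± 0.11). Cholesterol synthesis and LDL uptake had 13 of 21 genes higher in iWAT adipocytes and 1 in BAT (median 0.83, or 1.67 without TMM with 21 in the iWAT direction and 0 in that of BAT), among them Hsd17b7 (1.27 ± 0.14) and Sc4mol (1.32 ± 0.10), enzymes of the late steps of the pathway.

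The list of white adipocyte genes lay at the iWAT end. Of 15 tested, 14 were higher in iWAT adipocytes and none in BAT (median 3.81), and Sparcl1† did not pass. Their share of the deposited RPKM was 1.33 ± 0.136% in iWAT adipocytes, 0.199 ± 0.0183% in BAT and 0.443 ± 0.184% for the eWAT samples. Sfrp5†, a secreted inhibitor of Wnt proteins, lay between 54.1 and 86.7 (median 69.3) in iWAT adipocytes and between 0.689 and 1.75 (median 1.22) in BAT (log2 fold change 5.84 ± 0.19, adjusted p = 1.38e-12). Mest†, an enzyme linked to the growth of fat cells, had 167 ± 43.7 in iWAT adipocytes and 3.35 ± 0.806 in BAT (log2 fold change 5.64 ± 0.22, adjusted p = 5.23e-12). Retn, the hormone resistin, had 138 ± 35.4 in iWAT adipocytes and 3.04 ± 0.982 in BAT (log2 fold change 5.51 ± 0.25, adjusted p = 2.75e-11). The 3 genes differed by at least 45.6-fold, and the groups did not overlap for any of them.

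Among 25 adipokines and other secreted factors 17 were higher in iWAT adipocytes and 6 in BAT (median 1.75). Lep†, leptin, lay between 547 and 758 (median 680.0) in iWAT adipocytes and between 64.6 and 98.2 (median 77.5) in BAT (log2 fold change 3.08 ± 0.13, adjusted p = 1.20e-11). Adipoq†, adiponectin, differed less and lay between 624 and 1054 (median 905) in iWAT adipocytes and between 226 and 304 (median 266) in BAT (log2 fold change 1.75 ± 0.13, adjusted p = 5.01e-09). Both hormones had levels above 60 in every BAT sample, and both were higher in every iWAT adipocyte sample. The factors higher in BAT were led by Nampt (-1.53 ± 0.11), which makes nicotinamide mononucleotide, and the vessel growth factor Vegfa (-1.47 ± 0.15). Of 20 angiogenic factors 8 were higher in iWAT adipocytes and 4 in BAT (median 0.20, or 1.06 without TMM with 18 in the iWAT direction and 2 in that of BAT), a share passing that was below that of all genes. They included Fgf10† (3.80 ± 0.18) and Hgf† (3.11 ± 0.16) at the iWAT end and Vegfb (-1.51 ± 0.12) at the BAT end.

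Of 22 iron and heme genes 13 were higher in BAT and 6 in iWAT adipocytes (median -0.43, or 0.43 without TMM with 13 in the iWAT direction and 4 in that of BAT). The iron exporter Slc40a1 was on the BAT side (-2.08 ± 0.22). Members on the other side included Trf†, transferrin, with 338 ± 78.9 in iWAT adipocytes and 7.10 ± 1.83 in BAT (log2 fold change 5.57 ± 0.22, adjusted p = 6.22e-12), and Hp, haptoglobin, with 1491 ± 345 in iWAT adipocytes and 496 ± 31.9 in BAT (log2 fold change 1.59 ± 0.14, adjusted p = 4.31e-08). Among 25 antioxidant genes (median -0.08, or 0.76 without TMM with 16 in the iWAT direction and 7 in that of BAT) 10 were higher in iWAT adipocytes, such as Hmox1 (3.38 ± 0.18), the heme-degrading oxygenase, and 11 in BAT, such as Gpx3 (-3.61 ± 0.24) and the mitochondrial Prdx3 (-2.10 ± 0.12).

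Genes of signalling to the lipolytic and thermogenic machinery lay on both sides. So did all genes tested, with 37.2% higher in BAT and 38.1% higher in iWAT adipocytes. Of 32 genes of adrenergic receptors, G proteins and cyclic AMP 15 were higher in BAT and 11 in iWAT adipocytes (median -0.28, or 0.58 without TMM with 18 in the iWAT direction and 11 in that of BAT). Adrb3, the beta-adrenergic receptor of fat, lay between 6.25 and 15.2 (median 10.4) in iWAT adipocytes and between 70.4 and 129 (median 85.2) in BAT (adjusted p = 3.80e-09). Adrb1 differed alike (-3.65 ± 0.18). The adenylyl cyclases went the other way for Adcy5†, with 17.5 ± 3.42 in iWAT adipocytes and 0.478 ± 0.179 in BAT (log2 fold change 5.19 ± 0.24, adjusted p = 2.85e-11), and for Adcy7 (3.02 ± 0.17). Gnai1, an inhibitory G protein subunit, was also higher in iWAT adipocytes (2.63 ± 0.15). Insulin signalling had 9 of 19 genes higher in iWAT adipocytes and 3 in BAT (median 0.13, or 0.99 without TMM with 18 in the iWAT direction and 0 in that of BAT), and Irs2, an adaptor of the insulin receptor, had 15.5 ± 2.19 in iWAT adipocytes and 1.65 ± 0.844 in BAT (log2 fold change 3.22 ± 0.26, adjusted p = 1.85e-08). Akt2 and Tbc1d4†, steps between the receptor and glucose transport, were called higher in BAT (-0.72 ± 0.10 and -0.58 ± 0.10). Both log2 fold changes turned positive without TMM (0.12 and 0.27), but not when the mitochondrial rows were also left out.

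Hox genes, which record position along the body axis, divided by their number. Of 27 tested, 11 were higher in iWAT adipocytes and 12 in BAT (median -0.01, or 0.85 without TMM with 14 in the iWAT direction and 5 in that of BAT), but the groups of paralogs pointed in opposite directions. Of 13 genes of groups 1 to 5, all but Hoxb5† were higher in BAT (12, median -1.05), although without TMM 5 were (median -0.20). Hoxa5† lay between 1.74 and 3.25 (median 2.04) in iWAT adipocytes and between 11.8 and 15 (median 12.1) in BAT (log2 fold change -2.48 ± 0.15, adjusted p = 3.94e-10). Hoxa4† and Hoxc4† differed by -3.19 ± 0.15 and -2.43 ± 0.15. Of 5 genes of groups 6 and 7, 2 were higher in iWAT adipocytes. Of 9 genes of groups 8 to 10, 8 were higher in iWAT adipocytes and none in BAT (median 3.71), and Hoxd8 did not pass. Hoxc8 had 25.2 ± 4.01 in iWAT adipocytes and 1.94 ± 0.366 in BAT (log2 fold change 3.71 ± 0.14, adjusted p = 5.22e-12). Hoxc10, Hoxa10 and Hoxc9 had at most 3 reads in every BAT sample, and were at least 74.7-fold, 69.7-fold and 32.7-fold higher in iWAT adipocytes when set against 3 reads per library. None of the 9 genes of groups 11 to 13 reached the count needed for a test.

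**Figure D5:**
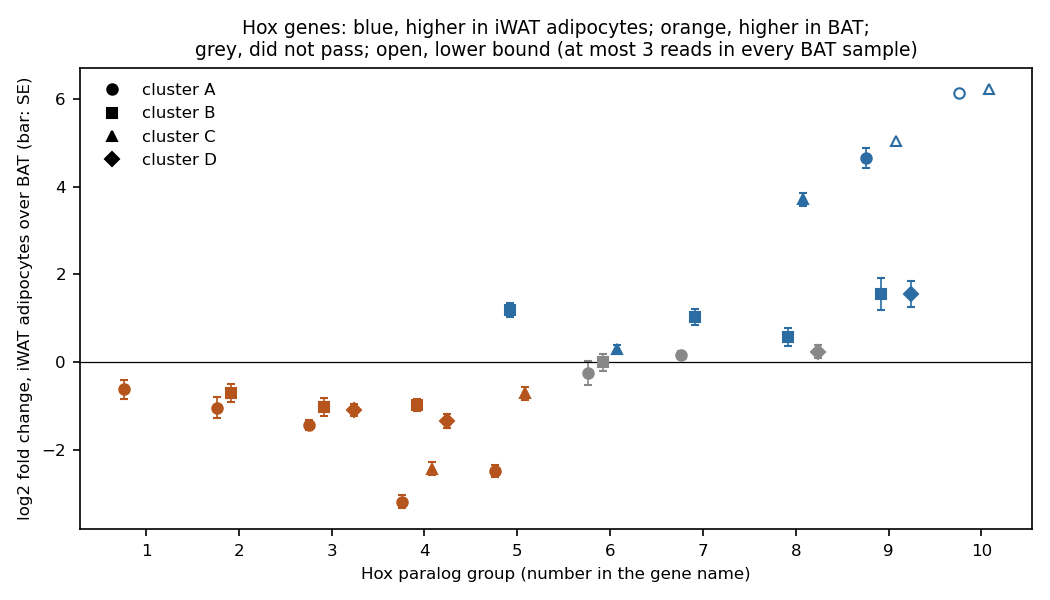
Log2 fold change of 27 Hox genes (iWAT adipocytes over BAT, bars are SE) by paralog group, with the 3 genes at the floor in BAT drawn open at their lower bound. Groups 1 to 5 lie below 0 with the exception of Hoxb5, and groups 8 to 10 lie above it.

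Other transcription factors of depot and fat cell identity were found on both sides. Outside the Hox clusters, 8 of 18 depot factors were higher in iWAT adipocytes and 4 in BAT (median 0.29, or 1.2 without TMM with 13 in the iWAT direction and 3 in that of BAT), again a smaller share passing than over all genes. Zic1, a factor of the trunk muscle and brown fat lineage, was at the floor in iWAT adipocytes and at least 63.3-fold higher in BAT, and Tbx5 was higher in BAT too (-3.42 ± 0.33). Tbx15, a factor of subcutaneous fat, and Shox2†, a factor of the limb, were higher in iWAT adipocytes (1.39 ± 0.16 and 3.21 ± 0.20). Of 23 adipogenic and metabolic nuclear factors 12 were higher in BAT and 7 in iWAT adipocytes (median -0.30, or 0.55 without TMM with 14 in the iWAT direction and 6 in that of BAT). Ppara†, the nuclear receptor that drives fatty acid oxidation genes, lay between 0.634 and 1.07 (median 0.949) in iWAT adipocytes and between 41.9 and 65.3 (median 47.9) in BAT (log2 fold change -5.83 ± 0.16, adjusted p = 2.65e-13). On the iWAT side stood Cebpd† (3.13 ± 0.21), an early factor of adipogenesis, Zbtb16† (2.22 ± 0.16) and Zfp423† (1.24 ± 0.14). Of 19 clock genes 7 were higher in BAT and 5 in iWAT adipocytes (median -0.18, or 0.68 without TMM with 11 in the iWAT direction and 3 in that of BAT), with Hlf† (-3.01 ± 0.19) and Rora† (1.67 ± 0.09) in opposite directions. The hour of sampling of each depot was not among the labels.

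Immediate early and heat shock genes, which cells switch on within minutes of a disturbance, were much higher in iWAT adipocytes. Of 41 genes 38 were higher there and 1, Hsp90ab1, in BAT (median 2.92). Fos lay between 309 and 453 (median 349.9) in iWAT adipocytes and between 0.736 and 4.81 (median 1.24) in BAT (log2 fold change 7.62 ± 0.45, adjusted p = 4.22e-10). Fosb had 108 ± 36.5 in iWAT adipocytes and 0.525 ± 0.519 in BAT (log2 fold change 7.68 ± 0.55, adjusted p = 4.40e-09). Without the BAT of mouse 18, the highest of the BAT samples for Fos, the log2 fold changes of Fos and Fosb were 8.22 and 8.37. Socs3, an inhibitor of cytokine signals, had 67.1 ± 15.4 in iWAT adipocytes and 0.725 ± 0.191 in BAT (log2 fold change 6.53 ± 0.21, adjusted p = 9.55e-13). Hsp90ab1 differed little (log2 fold change -0.34 ± 0.10, adjusted p = 0.0047, and 0.089 with the mouse as a block) and was positive without TMM (0.51). The list made up 2.21 ± 0.425% of the deposited RPKM in iWAT adipocytes, 1.72 ± 0.223% in eWAT adipocytes, which were isolated by the same digestion, and 0.321 ± 0.0944% in frozen BAT. The part of digestion in these values was not tested.

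Inflammatory cytokines and chemokines gave the largest list median, with 26 of 29 genes higher in iWAT adipocytes and 1 in BAT (median 4.82). Cxcl1, a neutrophil attractant, lay between 115 and 285 (median 178) in iWAT adipocytes and between 0.446 and 1.21 (median 0.578) in BAT (log2 fold change 8.12 ± 0.29, adjusted p = 2.59e-12). Its neighbour Cxcl2 lay between 50.9 and 131 (median 67.6) in iWAT adipocytes and between 0.102 and 0.221 (median 0.147) in BAT (log2 fold change 8.92 ± 0.32, adjusted p = 2.38e-12). Tnf, the tumour necrosis factor of macrophages and other cells, lay between 22.9 and 59.7 (median 30.0) in iWAT adipocytes and between 0.0584 and 0.264 (median 0.121) in BAT (log2 fold change 7.85 ± 0.35, adjusted p = 2.18e-11). All 3 were at least 231-fold higher in iWAT adipocytes, and the groups did not overlap, as the rule for naming the largest differences required. Il6, Il10 and Cxcl3, a neighbour of Cxcl2 that was not in the list, had at most 3 reads in every BAT sample, and were at least 116-fold, 109.7-fold and 36.6-fold higher in iWAT adipocytes. Cxcl14 was the one higher in BAT (-1.42 ± 0.28), and it did not pass without TMM (-0.56, adjusted p = 0.093). Among the 15 largest differences towards iWAT adipocytes were further genes of activated or white blood cells, namely Ptx3†, a secreted pentraxin (6.53 ± 0.28), Rgs1, which dampens G protein signals in leukocytes (6.83 ± 0.25), and the integrin Itgad (7.57 ± 0.31). Fam110c, Tm4sf19 and Rasgef1b were also in that group (8.08 ± 0.25, 6.91 ± 0.30 and 6.50 ± 0.36). The list made up 0.298 ± 0.0796% of the deposited RPKM in iWAT adipocytes, 0.0216 ± 0.00281% in BAT and 0.611 ± 0.149% for the eWAT samples. Macrophage markers and immediate early genes moved in the same direction, and the part of each was not tested.

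The promoters of the neighbouring Cxcl1, Cxcl2 and Cxcl3 are shown because the 3 genes moved together. They are RefSeq windows on GRCm38.p6, all on the + strand, at chr5:90890995-90891294, chr5:90903649-90903948 and chr5:90785851-90786150. Capitals mark GGAATTTCC, letters of the NF-kappa-B type, and ATAAAAGG, letters of the TATA type, both chosen after these promoters were read.
Cxcl1: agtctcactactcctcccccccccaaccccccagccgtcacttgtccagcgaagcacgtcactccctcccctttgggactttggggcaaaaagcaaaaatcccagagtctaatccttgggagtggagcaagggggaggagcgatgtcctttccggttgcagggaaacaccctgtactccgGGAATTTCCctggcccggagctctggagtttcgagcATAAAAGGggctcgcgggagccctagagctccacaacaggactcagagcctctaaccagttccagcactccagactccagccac
Cxcl2: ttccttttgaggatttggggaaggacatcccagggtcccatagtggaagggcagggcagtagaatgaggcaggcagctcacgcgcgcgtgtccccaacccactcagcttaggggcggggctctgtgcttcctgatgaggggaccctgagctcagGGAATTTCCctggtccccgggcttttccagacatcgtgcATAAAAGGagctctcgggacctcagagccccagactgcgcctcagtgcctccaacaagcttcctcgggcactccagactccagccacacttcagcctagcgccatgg
Cxcl3: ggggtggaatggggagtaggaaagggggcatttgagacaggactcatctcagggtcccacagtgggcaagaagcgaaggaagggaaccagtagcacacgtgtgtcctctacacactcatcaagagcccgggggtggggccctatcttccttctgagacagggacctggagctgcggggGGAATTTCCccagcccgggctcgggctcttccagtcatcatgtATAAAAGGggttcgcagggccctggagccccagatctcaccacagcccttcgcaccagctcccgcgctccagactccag
GGAATTTCC began 70, 96 and 72 bases before the start of Cxcl1, Cxcl2 and Cxcl3, and ATAAAAGG 34, 57 and 29 bases before it. Searched on both strands, GGAATTTCC was in 0.317% of the 32851 windows and in 3 of the 23 windows of the inflammatory list (13%), with Cxcl1 and Cxcl2 among them and Cxcl3 not counted. ATAAAAGG was in 1.76% of all windows and in 5 of those 23 (21.7%), again with Cxcl1 and Cxcl2 among them. The matches of Cxcl1 and Cxcl2 were fixed by the choice of letters, so neither share of the list tests an enrichment. TGACG, the letters marked in Ucp1, was in 19 of 38 windows of the immediate early and heat shock list against 20.8% of all windows. Those 38 windows came from 30 genes, 16 of which had a match. These matches describe the letters of the windows and say nothing of which factor was bound.

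Genes of lipid-laden macrophages and lysosomes were higher in iWAT adipocytes, as were the macrophage markers. Of 20 genes 19 were higher in iWAT adipocytes and none in BAT (median 2.87). Gpnmb, a membrane protein of lysosome-rich macrophages, had 53.2 ± 13 in iWAT adipocytes and 0.808 ± 0.273 in BAT (log2 fold change 6.04 ± 0.26, adjusted p = 1.20e-11). Lgals3, galectin of the same cells, had 212 ± 45.6 in iWAT adipocytes and 4.46 ± 0.796 in BAT (log2 fold change 5.57 ± 0.17, adjusted p = 7.69e-13). Atp6v0d2†, a proton pump subunit of phagocytes, and the elastase Mmp12† differed by 6.25 ± 0.26 and 5.12 ± 0.19. Cd68, a marker of the macrophage list, lay between 82.4 and 149 (median 110.0) in iWAT adipocytes and between 2.56 and 4.78 (median 3.92) in BAT (log2 fold change 4.88 ± 0.19, adjusted p = 5.03e-12). MHC class II presentation had 8 of 9 genes higher in iWAT adipocytes (median 1.97, Cd74 2.11 ± 0.16), and 21 of 25 interferon-stimulated genes were higher there and 1 in BAT (median 0.83, Irf1† 2.86 ± 0.15). Neutrophil markers were higher for both genes tested, and none of the 4 B cell markers passed.

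Matrix and growth genes were higher in iWAT adipocytes too. Of 28 collagens 16 were higher in iWAT adipocytes and 8 in BAT (median 1.56, or 2.42 without TMM with 19 in the iWAT direction and 4 in that of BAT), with Col15a1†, a basement membrane collagen of fat, at 45.4 ± 7.01 against 3.40 ± 0.631 (log2 fold change 3.74 ± 0.14, adjusted p = 4.82e-12) and Col27a1, a collagen of cartilage, at 0.117 ± 0.0483 against 7.45 ± 1.28 (log2 fold change -5.98 ± 0.23, adjusted p = 4.43e-12). Matrix proteases, inhibitors and cross-linkers had 21 of 26 higher in iWAT adipocytes and 2 in BAT (median 1.92), including the aggrecanases Adamts4 (4.22 ± 0.50, or 3.57 without the iWAT adipocytes of mouse 5) and Adamts5 (3.81 ± 0.12). Of 26 cell cycle genes 24 were higher in iWAT adipocytes and none in BAT (median 2.22). Mki67, present in dividing cells of any type, had 3.92 ± 1.20 in iWAT adipocytes and 0.625 ± 0.133 in BAT (log2 fold change 2.65 ± 0.19, adjusted p = 5.73e-09), and Cdk1, which starts mitosis, differed by 3.08 ± 0.16. Fibroblast and macrophage markers were also higher in these samples, and their part was not tested.

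Stress of the endoplasmic reticulum gave 13 of 17 genes higher in iWAT adipocytes and 1 in BAT (median 1.0), with Chac1 at 3.62 ± 0.29 and the chaperone Hspa5† at 1.40 ± 0.13. Of 18 hypoxia genes 9 were higher in BAT and 7 in iWAT adipocytes (median -0.39, or 0.47 without TMM with 10 in the iWAT direction and 5 in that of BAT). Over all genes tested the shares were 37.2% and 38.1%. Egln1, the oxygen sensor that marks HIF for breakdown, was higher in BAT (-2.5 ± 0.09), and the vasodilator Adm was higher in iWAT adipocytes (2.85 ± 0.20).

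Creatine and calcium cycling, other routes to heat, had 10 of 15 genes higher in BAT and 5 in iWAT adipocytes (median -1.52), but several members are also muscle genes. Atp2a1†, the calcium pump of fast muscle, lay between 0.0705 and 1.09 (median 0.782) in iWAT adipocytes and between 0.207 and 26.8 (median 16.1) in BAT (log2 fold change -4.46 ± 0.83, adjusted p = 1.50e-04). Ckm†, muscle creatine kinase, lay between 0.174 and 2.51 (median 1.80) in iWAT adipocytes and between 0.245 and 30.1 (median 21.9) in BAT (log2 fold change -3.50 ± 0.76, adjusted p = 6.33e-04). The low BAT values of both were those of mice 2 and 17, the samples with the lowest muscle marker sums. With BAT restricted to those mice, Atp2a1 and Ckm no longer passed (log2 fold changes -1.49 and -0.60, adjusted p = 0.17 and 0.59). That fit kept fewer BAT samples, chosen for their low muscle signal, so the loss of calls for muscle genes follows in part from the choice. The part of muscle in these values was not tested. In the same fit 6 genes of the list were higher in BAT and 5 in iWAT adipocytes (median -0.82). Itpr2†, a calcium channel of the endoplasmic reticulum, was higher in BAT (-2.26 ± 0.09), and Gatm† and Gamt†, which make creatine, were higher in iWAT adipocytes (1.78 ± 0.20 and 2.31 ± 0.12).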

How the data were processed

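RNA-seq counts were taken for 6 iWAT adipocyte and 6 BAT samples. Per the submitters' processing notes, the authors trimmed reads with cutadapt 1.16 and aligned them with HISAT2 2.1.0 to mm9, from NEBNext Ultra libraries that do not keep the strand, and deposited whole-read counts and RPKM per gene row. The counter and its annotation are not given in the sources used here. The deposited RPKM were used for the choice of row, for the level needed to name a gene and for shares of a list in the total. Of 53445 rows, 1 was kept per symbol (52093 symbols), chosen by the largest RPKM averaged over the 18 files. The test took the 19745 genes whose counts averaged 10 or more in the 12 samples. TMM factors and edgeR 4.0.16 quasi-likelihood tests (R 4.3.3) gave log2 fold changes and Benjamini-Hochberg adjusted p-values over all genes tested, with a threshold of 0.05. TMM-scaled RPKM were calculated from the counts, the row length and the TMM-scaled library size. Standard errors were taken from the log2 fold change and the quasi-likelihood F. Each sample of a group had its own mouse number. On simulated counts, 172 of 183 changed genes were called with the right sign, and 5 of 177 calls were of unchanged genes (19226 genes). Far fewer genes were changed there than the 14864 called here, so these numbers do not give the error rate of this comparison. Replicates differed beyond counting noise, by at least 18 times the counting variance. Shared mouse numbers were used as a block in an alternative. Over 16094 genes, deviations from the group means of equally numbered samples correlated at 0.109, -0.026, -0.159 and 0.030 (mice 1, 2, 5 and 16), against -0.214 to 0.222 for the 32 pairings of different numbers.

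Genes were named by rule: the 15 called genes with the largest difference in each direction (groups apart, at least 10 RPKM, no gene models), the 10 most abundant in each group, up to 3 called members with the largest difference in each direction of each list with at least 1 RPKM, the paralog pairs, the 5 most abundant genes that did not pass, and cell type markers. Some genes that the rule names are not reported here. Lep, Slc2a4, Cxcl3, Hoxc8 and Zic1, the members named where a count was 5 or fewer, and the motif letters were chosen after their values or sequences were seen. The gene lists, pairs and comparisons were all chosen with earlier results of these data known. A gene with at most 3 reads in every sample of a group was set against 3 reads per library. Promoters were from RefSeq on GRCm38.p6. Alternatives were the block, DESeq2 1.42.0, limma 3.58.1 on log2 RPKM, no TMM, no filter, summed rows, all 18 samples, lanes 2 and 4 only, genes with no overlapping row, and leaving out each sample. Left out later were the mitochondrial rows, the BAT samples with more muscle signal, and rows away from the gene. Taken over genes together, counting error alone is far below the spread between mice at these depths, which need not hold for genes with few reads.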

Additional observations from a re-analysis of the deposited data

Results flagged for a closer look

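A value was picked out here when the highest or lowest of 6 samples stood apart from the nearest other by more than 0.625 of the group's range, the critical value of Dixon's ratio for 6 samples at 95%. Of 374 groups of 6 examined, 32 were picked out, where chance gives about 1 in 20 (18.7). Levels are TMM-scaled RPKM, and no explanation was tested.

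The iWAT adipocytes of mouse 5 gave 10 of them. Mitochondrial and metabolic genes were lowest there, namely Atp5g3 at 55.4 (others 73.6 to 79.8), Ndufv1 at 21.3 (29.0 to 30.7), Sdhb at 8.29 (10.1 to 11), Suclg1 at 8.51 (11.9 to 13.6), Slc25a42 at 0.617 (0.888 to 1.04), Pfkl at 4.69 (5.73 to 6.34) and Thrsp at 18.5 (39.5 to 43.1). Shox2 was also lowest there, at 2.85 (4.17 to 4.94). Adamts4 at 17.8 (2.93 to 5.96) and Il6 at 19.9 (3.93 to 8.22) were highest there. Each of these genes kept its direction and its call without that sample.

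In the BAT of mouse 18, Fos was at 4.81 (others 0.736 to 2.14), Cxcl1 at 1.21 (0.446 to 0.709), Cxcl3 at 0.0300 (at most 0.00913), Elovl6 at 153 (60.4 to 95.2), Scd2 at 106 (42.2 to 65.8) and the summed mast cell markers at 5.85 (2.53 to 3.62). In the BAT of mouse 5, Cox8b was at 872 (1369 to 1637), Cox8a at 381 (567 to 665), Gnai2 at 25.5 (32.1 to 34.0) and the summed brown adipocyte markers at 3754 (4872 to 5269).

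The remaining values came from single samples. In BAT these were Rgs1 at 0.290 in mouse 16 (others 0.0616 to 0.145), Cpn2 at 17.3 in mouse 2 (others 9.09 to 11.7), Shox2 at 0.189 in mouse 17 (0.467 to 0.530) and the share of reads on rows of the mitochondrial genome at 20.6% in mouse 16 (16.2 to 17.5%). In iWAT adipocytes they were Hspb7 at 3.10 and Il10 at 27.1 in mouse 3 (1.84 to 2.16 and 8.70 to 13.5), Ppargc1a at 0.918 in mouse 16 (0.503 to 0.650) and the summed Schwann cell markers at 19.5 in mouse 1 (9.01 to 12.5). Values from at most 3 reads beside 0 in the other 5 samples were Hoxa10 at 0.00709 in the BAT of mouse 1, Hoxc9 at 0.0147 and Il10 at 0.0217 in the BAT of mouse 17, and Zic1 at 0.00449 in the iWAT adipocytes of mouse 4.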

How the results depend on the processing

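The split between the directions moved most without TMM and with limma, which also changed the test and the filter. Without TMM the genes called higher in iWAT adipocytes numbered 13703 and the genes called higher in BAT 3054, of 16757, and with limma on log2(RPKM + 0.1) they numbered 12752 and 4402. Rows that overlap no other gave 5318 genes called (2767 and 2551) of 6966 tested, and a log2 fold change of at least 1 in either direction gave 7363 (3585 and 3778). The other alternatives gave 12555 to 19467 genes called, the highest with no filter. Leaving out each sample gave 14434 to 14833. With the mouse as a replicate block 12555 were called, 12500 of them also called without it, and none in the opposite direction. The labels did not say that equal numbers mark 1 animal, and equally numbered samples did not deviate together. Of 27 paralog ratios, 22 passed in the shared mice only and 25 with each other setting.

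Of 167 named genes, 149 kept their direction and their side of the threshold in all 24 alternatives. Without TMM the log2 fold change changed sign for Akt2 (0.12), Fgf21 (0.32), Hsp90ab1 (0.51), Scd1 (0.0744) and Tbc1d4 (0.27), and with limma for Fgf21 (0.0703), Hsp90ab1 (0.27) and Tbc1d4 (0.0288). Without TMM and with the mitochondrial rows also left out, none of the 165 named genes in that fit changed sign. The block ended the calls of Fabp4 (adjusted p = 0.14), Atp5g3 (0.092) and Hsp90ab1 (0.089). Without TMM, Nrg4 (-0.28) and Cxcl14 (-0.56) did not pass. Fgf21 passed without the iWAT adipocytes of mouse 2 (-0.78, adjusted p = 0.017) or without the BAT of mouse 5 (-0.66, adjusted p = 0.044). Depth set a floor of 3 reads per library, and depot, isolation and lane could not be separated by any alternative.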
